A study of Mus musculus with 4 samples.

Results

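Gastric-type mucinous KPC tumor cells are tumor cells that carry transcripts of the stomach's surface mucous lining. They were taken as cells with at least 2000 unique molecular identifiers (UMIs), at least 3 of 8 epithelial genes detected (Krt7, Krt8, Krt18, Krt19, Epcam, Cldn4, Cldn7 and Cdh1) and 0 UMIs of Ptprc, Pdgfra and Pecam1. Of these, a cell was kept when more of the 6 genes Gkn1, Gkn2, Muc5ac, Mucl3, Tff1 and Sptssb were detected than of any of 3 other lists of 6 genes, with at least 2 detected and no tie. This gave 929 cells, 4.78% of the 19431 cells that passed the tumor cell filter and 2.05% of the 45218 cells deposited. The competing lists mark squamous-like cells (Sprr1a, Ivl, Anxa10, Glod5, Fermt1 and Wfdc2), Hmga2 Klhl1 cells (Klhl1, Lingo2, Hmga2, Rgs20, Ndst3 and Tnnt2) and Pkhd1 Tenm1 cells (Tenm1, Pkhd1, Pik3c2g, Plch1, Onecut3 and Hnf1aos1). The cells were thus chosen from their own counts, and the levels of these 24 genes are given as a description, without a test.

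Droplet scRNA-seq covered 4 libraries, 1 per condition, from pancreatic tumors of male C57BL/6 mice grafted with KPC cells. KPC cells are 1 mouse pancreatic ductal adenocarcinoma (PDAC) line from a Pdx1-Cre model that carries mutant Trp53. Pdgfrb-TK mice, in which a Pdgfrb promoter drives thymidine kinase in host cells, received 50 mg/kg ganciclovir (Pdgfrb-TK/GCV) or PBS (Pdgfrb-TK/PBS) over 25 days. Wild-type mice received 30 mg/kg of the peptide D-CAN (D-CAN) or PBS (WT/PBS) over the same 25 days. Mice spent 24 weeks on a high-fat diet beforehand, and the labels give an age of 7 months while the paper's methods give 12 months. Tumor suspensions were pooled by treatment before capture, so a difference between conditions has no replicate check. The deposited libraries held 127722502, 84020317, 130115741 and 155408336 UMIs in the 2 Pdgfrb-TK libraries, with GCV first, and then in D-CAN and WT/PBS. Values below follow this library order wherever 4 are given together.

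Gastric pit (foveolar) cells line the surface of the stomach and coat it with mucus. Muc5ac is their secreted gel-forming mucin, Tff1 a trefoil peptide secreted with it, and Gkn1 and Gkn2 are gastrokines, small secreted proteins of the same cells. Mucl3 is a mucin-like membrane protein, and Sptssb is a small subunit of serine palmitoyltransferase, the enzyme that starts sphingolipid synthesis. Normal pancreatic ducts hold little of these products, while early ductal lesions of the pancreas and classical PDAC are known for taking on such a gastric program.

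Gkn1, Gkn2 and another gastrokine, Gkn3, lie beside each other on chromosome 6 of mm10. Gkn1 spans 87345650 to 87350942 on the minus strand, Gkn2 87373357 to 87379497 on the plus strand and Gkn3 87383256 to 87388935 on the minus strand. Their promoters are shown because Gkn1 and Gkn2 are genes of the rule and Gkn3 is their neighbor of the same family. The sequences are RefSeq's for GRCm38.p6, 250 bases before to 50 after each start, and capitals mark AGATAA, a word that GATA factors bind, and TATAAA, the TATA box.
Gkn1 (chr6:87350866-87351165, minus strand): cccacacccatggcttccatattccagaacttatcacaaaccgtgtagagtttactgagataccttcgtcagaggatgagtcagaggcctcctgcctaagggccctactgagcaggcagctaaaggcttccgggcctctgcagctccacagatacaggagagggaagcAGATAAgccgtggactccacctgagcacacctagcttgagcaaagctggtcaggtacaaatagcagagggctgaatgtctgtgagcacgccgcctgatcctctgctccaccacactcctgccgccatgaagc
Gkn2 (chr6:87373115-87373414, plus strand): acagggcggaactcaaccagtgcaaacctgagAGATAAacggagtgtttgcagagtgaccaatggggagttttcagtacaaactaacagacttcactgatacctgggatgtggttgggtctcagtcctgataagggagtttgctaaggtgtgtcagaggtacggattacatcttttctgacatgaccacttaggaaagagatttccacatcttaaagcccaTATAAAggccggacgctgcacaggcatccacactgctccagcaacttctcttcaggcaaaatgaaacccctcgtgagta
Gkn3 (chr6:87388886-87389185, minus strand): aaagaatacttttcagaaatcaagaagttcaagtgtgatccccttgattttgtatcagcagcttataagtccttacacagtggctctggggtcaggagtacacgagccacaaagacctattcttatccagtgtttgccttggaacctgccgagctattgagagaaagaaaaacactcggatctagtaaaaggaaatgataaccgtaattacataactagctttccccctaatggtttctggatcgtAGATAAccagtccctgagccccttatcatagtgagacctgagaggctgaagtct
Each of the 3 promoters held AGATAA, first base at -82 in Gkn1, -218 in Gkn2 and -4 in Gkn3 from the start, and 11.2% of all 32851 promoters held it on either strand. TATAAA stood at -29 in Gkn2 and is held by 13.6% of the promoters searched. TGTTTAC, a FOX factor word (3.65% of promoters), and CCACCC, a KLF factor word (31.5%), were searched on both strands too and were not found in these 3 windows. Of the 6 rule genes, 4 had a promoter to search, and those of Mucl3 and Sptssb held no AGATAA. Of the 15 genes named below as most raised, 12 had a promoter, and only that of Ces2g held AGATAA, on the opposite strand. None of the matches overlapped, and a match is a description of letters, not of a bound site.

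The D-CAN library stood apart and went against the label. Of its 40 gastric-type cells, 34 had only 2 of the 6 genes detected, and 29 cells (72.5%) had Tff1 and Sptssb alone. More than 20% of UMIs were mitochondrial in 62.5% of these 40 cells, and in those with 2 genes the median was 60.3%. Epcam, an epithelial adhesion molecule, was listed at 0 of 281098 UMIs in them, while other tumor cells of D-CAN stood at 21.5 CPM (counts per 1e6 UMIs of a class) and gastric-type cells of the other libraries at 74.8, 23.5 and 74.1 CPM. The 6 fibroblast markers summed to 1124 CPM in the 40 cells against 105 CPM in other tumor cells of D-CAN, led by the proteoglycan Dcn at 847 CPM. At least 3 of these markers were detected in 2 of the 40 cells (5.0%). As 3 of the 6 markers were at 0 in the 40 cells, this count cannot show how many cells carried Dcn. The share was 5.33% in other tumor cells of D-CAN, whose median depth was 21917 UMIs against 4250.5 in the 40 cells. The mesothelial markers Upk3b, Lrrn4 and Wt1 reached 35.6, 28.5 and 21.3 CPM in the gastric-type cells of D-CAN and at most 3.55 CPM in those of the other libraries. At least 3 of 5 mesothelial markers were detected in 1 of the 40 cells (2.5%), against 0.362% of other tumor cells of D-CAN. Krt8 and Krt18, keratins of simple epithelia, stood at 2053 and 1448 CPM in the 40 cells. Both are among the 8 epithelial genes of the filter, so their presence was largely fixed by it. In the 34 cells with 2 genes Krt8 stood at 825 CPM, against 2483 to 5367 CPM in those with 3 to 6 genes. The D-CAN values below are therefore those of the rule, and the main gene counts and the depth and mitochondrial differences are also given without this library.

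Cells with few rule genes were also doubtful in the other libraries. Over all libraries, 227, 238, 163, 201 and 100 gastric-type cells had 2, 3, 4, 5 and 6 of the 6 genes. Those with 2 genes, just inside the rule, had a median of 4245 UMIs, against 13667.5 in cells with 2 genes that were outvoted or tied and 11768 in cells with 1 gene. A cell with 2 genes was kept only with at most 1 gene of each other list detected, which shallow cells meet more easily. The gap to the outvoted or tied cells is thus partly built into the rule. In all, 6845 cells with 2 or more of the 6 genes were left out, 2068 of them tied. The 42 cells with 2 genes in Pdgfrb-TK/GCV held 2010 CPM of the 7 macrophage markers and 4.33 CPM of Epcam, while those with 3 to 6 genes held between 54.2 and 92.2 CPM of these markers. Of all 132 gastric-type cells of this library, 11 (8.33%) had at least 3 of the 7 markers detected, against 9.14% of its other tumor cells. Fibroblast markers reached 1173 CPM in the cells with 2 genes of Pdgfrb-TK/PBS and 1369 CPM in those of WT/PBS, and 13.7 and 55.9 CPM in those with all 6 genes. At least 3 of the 6 fibroblast markers were detected in 2.45% and 8.60% of all gastric-type cells of these libraries. The shares were 1.55% and 11.1% in their other tumor cells.

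**Figure D1:**
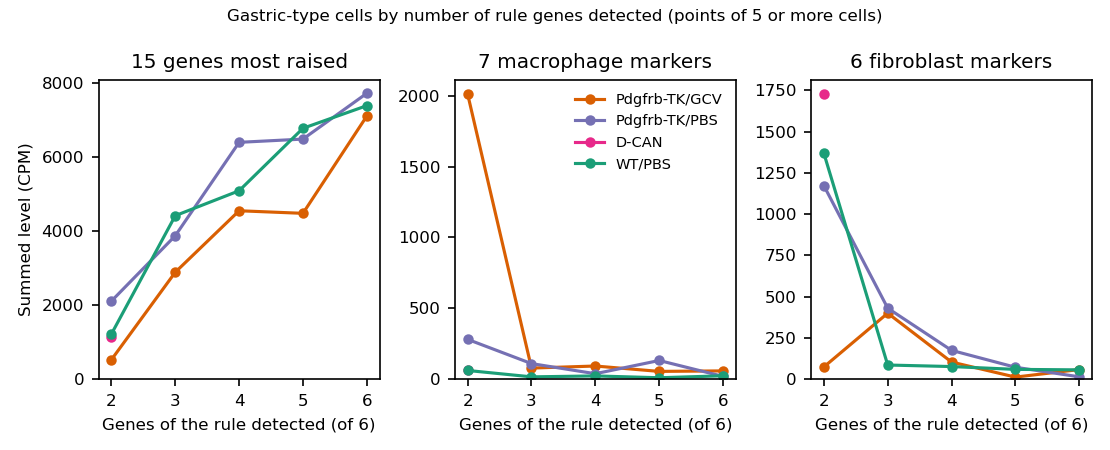
Summed level in CPM (y axis) of the 15 genes named as most raised, of 7 macrophage markers and of 6 fibroblast markers, by how many of the 6 rule genes were detected in a gastric-type cell (x axis), with a line per library and points of 5 or more cells. The raised genes climbed from 524 to 7104 CPM in Pdgfrb-TK/GCV, while macrophage markers stood at 2010 CPM in its cells with 2 genes and at no more than 92.2 CPM beyond them. The raised genes were picked from these same cells, so their climb is a description only.

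The 929 cells were set beside other tumor cells and host leukocytes on Cdkn2a and on chromosome shares. Cdkn2a, a cell cycle inhibitor gene that host leukocytes hardly use, stood at 268, 251, 285 and 174 CPM in gastric-type cells, at 414, 335, 445 and 348 CPM in other tumor cells and at 16.5, 55.7, 16.9 and 6.27 CPM in Ptprc cells (cells with Ptprc and none of the 8 epithelial genes). The share of UMIs from each chromosome can differ between an aneuploid line and its host, and also with the genes a cell type uses. From chromosome 15 came 4.47% to 4.99% of UMIs in gastric-type cells over the 4 libraries, 4.77% to 4.96% in other tumor cells and 3.30% to 3.56% in Ptprc cells. From chromosome 4 came 4.24% to 4.42%, 4.07% to 4.20% and 5.31% to 5.51% in the same classes. From chromosome 17 came 9.71% to 14.1%, 7.62% to 8.78% and 9.34% to 12.2%. Over 20 chromosomes, the range of the gastric-type cells did not overlap that of the Ptprc cells on 13, chromosomes 4 and 15 among them, nor that of the other tumor cells on 7, chromosomes 4 and 17 among them. In Pdgfra cells, host fibroblasts by that marker, chromosome 15 gave 3.46%, 3.77%, 3.56% and 3.58% of UMIs and chromosome 4 gave 5.36%, 5.35%, 5.31% and 5.20%, from 5, 15, 276 and 61 cells. Chromosomes 4, 15 and 17 were picked after their values were seen.

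Gastric-type cells were most frequent in Pdgfrb-TK/PBS, which held 61.5% of them. They made up 132 of 5381 tumor cells in Pdgfrb-TK/GCV, or 2.45% (95% Clopper-Pearson interval 2.06 to 2.90). In Pdgfrb-TK/PBS they made up 571 of 5982, or 9.55% (8.81 to 10.3). The share was 1.30% (0.929 to 1.76) in D-CAN, with 40 of 3080, and 3.73% (3.22 to 4.29) in WT/PBS, with 186 of 4988. Intervals cover counting error only, and no test is possible with a single library for each condition. The share was 3.89-fold lower (3.21 to 4.74) in Pdgfrb-TK/GCV than in Pdgfrb-TK/PBS and 2.87-fold lower (2.03 to 4.15) in D-CAN than in WT/PBS. The PBS libraries themselves differed, with Pdgfrb-TK/PBS at 2.56-fold (2.17 to 3.04) the share of WT/PBS. With the PBS libraries exchanged as controls the folds were 0.658 for Pdgfrb-TK/GCV and 0.136 for D-CAN.

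The form of the rule set the size of these differences. With at least 3 of the 6 genes the shares were 1.67%, 8.01%, 0.195% and 2.55%, with 6 cells left in D-CAN. With each cell thinned to 2000 UMIs before the rule, mitochondrial UMIs included, they were 6.38%, 17.1%, 4.82% and 5.48%. The fold of D-CAN to WT/PBS was then 0.880 (0.691 to 1.12), an interval that includes 1, and that of Pdgfrb-TK/GCV to Pdgfrb-TK/PBS was 0.374 (0.322 to 0.433). The other tumor cells of D-CAN had the highest median depth, at 21917 UMIs against 13934, 9282 and 14762.5 in Pdgfrb-TK/GCV, Pdgfrb-TK/PBS and WT/PBS. Over the same tumor cells, the squamous-like, Hmga2 Klhl1 and Pkhd1 Tenm1 shares in Pdgfrb-TK/GCV were 1.08-fold, 2.80-fold and 0.472-fold those in Pdgfrb-TK/PBS, and in D-CAN 0.592-fold, 1.54-fold and 2.38-fold those in WT/PBS.

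**Figure D2:**
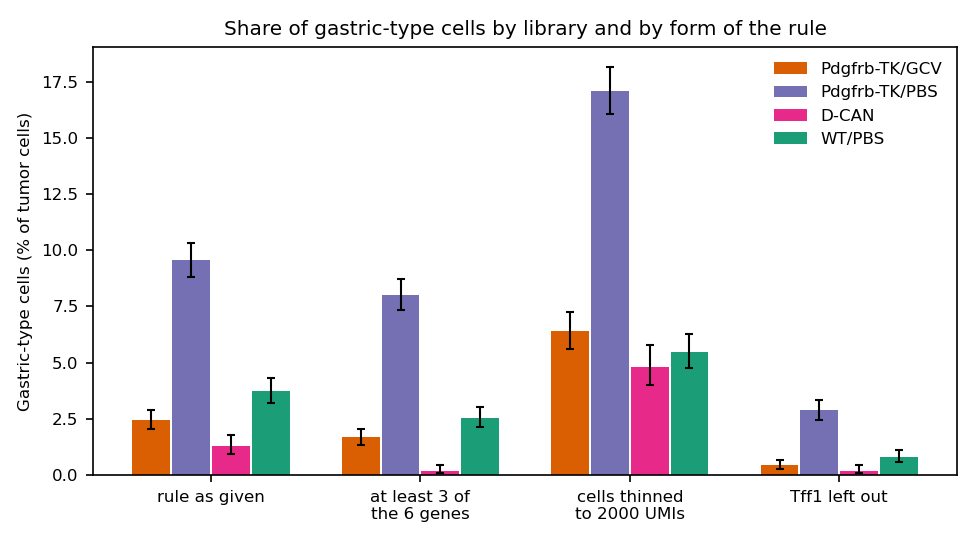
Gastric-type cells as a percent of tumor cells (y axis) in each library under 4 forms of the rule (x axis), with bars from 0 and exact 95% Clopper-Pearson intervals for counting error. Pdgfrb-TK/PBS had the highest share under each of the 4 forms, 9.55% with the rule as given, and D-CAN was level with WT/PBS only after thinning, at 4.82% against 5.48%.

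Tff1 was the most abundant of the 6 genes in every library. It stood at 9905, 17448, 4169 and 16607 CPM in gastric-type cells and at 1187, 5413, 804 and 1728 CPM in other tumor cells. Gkn2 stood at 1584, 2324, 861 and 1000.2 CPM and Gkn1 at 927, 1391, 253 and 553 CPM, against at most 86.3 and 29.0 CPM in other tumor cells. Mucl3 was at 535, 506, 46.2 and 211 CPM, against 44.9, 126, 11 and 15.5 CPM, so that the Mucl3 level of D-CAN cells lay within the range of other tumor cells. Muc5ac was at 90.9, 266, 285 and 116 CPM and at most 29.5 CPM in other tumor cells, and its D-CAN level came from 80 UMIs in 3 of the 40 cells (7.5%). Sptssb separated the classes least, with 344, 396, 288 and 140.5 CPM against 74.4, 194, 242 and 29.5 CPM. These levels are 3' UMI counts of the gene's own transcripts and are not divided by length.

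**Figure D3:**
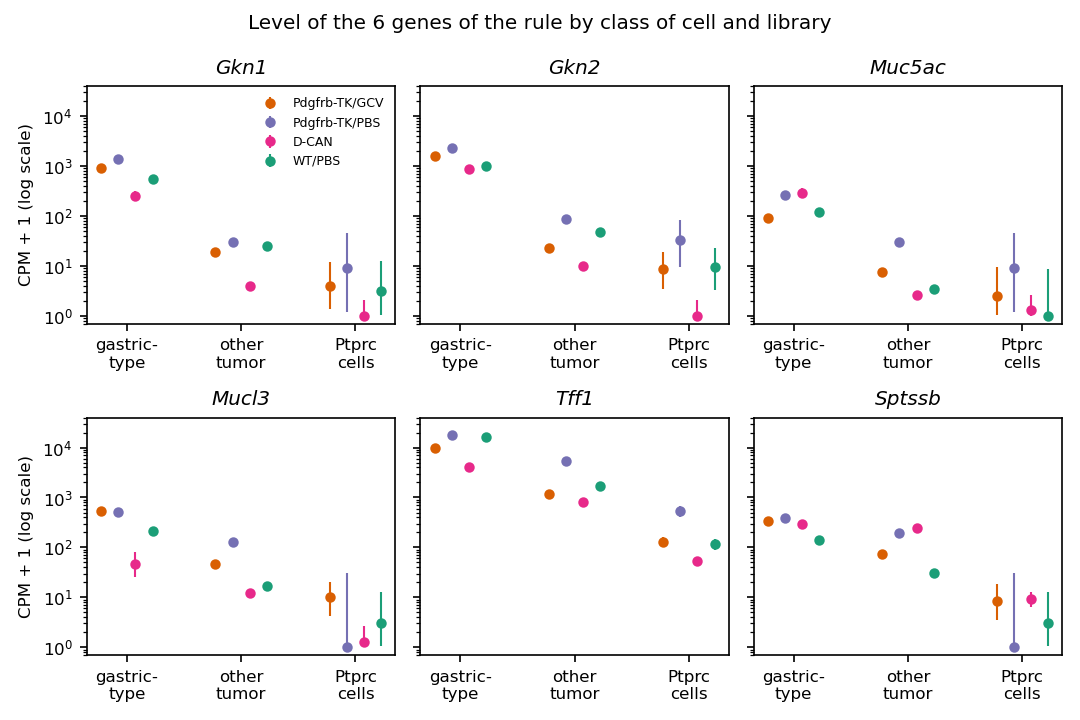
Level of each of the 6 rule genes, as CPM + 1 on a log axis, in gastric-type cells, other tumor cells and Ptprc cells, with a point per library and its exact 95% Poisson interval. Since the rule chose cells by these genes the first group stands highest by construction, and Tff1 remains at 52.2 to 525 CPM in Ptprc cells.

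Tff1 was also the gene of the 6 most often detected in Ptprc cells, and the part of free RNA in this was not tested. A Tff1 UMI was found in 99.2%, 99.8%, 92.5% and 99.5% of gastric-type cells, but also in 52.0%, 85.3%, 19.1% and 51.3% of Ptprc cells, whose median depths were 4416, 3275.5, 3800 and 5414.5 UMIs against 8551, 8377, 4250.5 and 11363 in gastric-type cells. For Sptssb the shares were 76.5%, 83.7%, 92.5% and 72.6% against 4.0%, 0%, 3.85% and 1.28%. The remaining 4 genes were seen in at most 8.8% of Ptprc cells. With Tff1 left out of the rule, 24, 172, 6 and 40 cells were left, 0.446%, 2.88%, 0.195% and 0.802% of tumor cells, and the fold of Pdgfrb-TK/GCV to Pdgfrb-TK/PBS was 0.155.

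Not every gene of the program was detected in every cell. Median depth rose from 4245 UMIs in gastric-type cells with 2 of the 6 genes detected to 16670 UMIs in those with 6. A gene that was not detected may thus still be used by the cell. The secreted gastrokines Gkn1 and Gkn2 were detected in 48.5% and 47.7% of gastric-type cells of Pdgfrb-TK/GCV, in 48.9% and 58.7% of Pdgfrb-TK/PBS and in 44.6% and 49.5% of WT/PBS. Muc5ac was found in 21.2%, 33.1% and 19.9% of cells of these libraries. Gkn2 was detected in 70.3%, 76.0% and 72.3% of cells with Gkn1 detected, against 26.5%, 42.1% and 31.1% of the rest. Both are genes of the rule, which kept cells by how many of the 6 were detected, so this pairing is a description only. The part of depth in this pairing was not tested. The 5 genes other than Muc5ac were the most frequent set in Pdgfrb-TK/GCV, with 25 cells (18.9%). This set was detected in 82 cells (14.4%) in Pdgfrb-TK/PBS and 25 cells (13.4%) in WT/PBS. All 6 genes were found in 12, 75, 2 and 11 cells.

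Genes of the competing lists were not absent from these cells. At least 1 squamous-like gene was found in all but 8.33%, 3.15%, 15% and 3.76% of gastric-type cells. The Hmga2 Klhl1 list was not detected at all in 45.5%, 55.7%, 70.0% and 52.7% of them, and the Pkhd1 Tenm1 list in 32.6%, 20.5%, 50% and 25.8%. The rule itself caps these counts below that of the gastric list.

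Gastric-type cells were shallower and richer in mitochondrial UMIs than other tumor cells. Their median depth was lower in 4 of 4 libraries, with a mean difference of -6838.5 ± 7447.5 UMIs (SD of the difference, n = 4; exact permutation p = 0.13, two-sided, the smallest that 4 pairs allow). The median mitochondrial share was 7.98%, 4.95%, 44.9% and 13.9%, against 4.98%, 4.37%, 4.73% and 6.01%, also higher in 4 of 4 libraries, by 12.9 points on average. Without D-CAN the mean differences were -3229 UMIs and 3.82 points of mitochondrial share. The rule leans to shallow cells among those with few rule genes, as stated above, and its part in the depth difference was not tested. Pkhd1 Tenm1 cells had median mitochondrial shares of 9.75%, 7.52%, 7.94% and 11.9%, above gastric-type cells in both Pdgfrb-TK libraries. Their median depths were 10341, 7326.5, 20103.5 and 11630 UMIs, against 8551, 8377, 4250.5 and 11363 UMIs in gastric-type cells. Within libraries, gastric-type cells with 2 of the 6 genes had median depths of 4807, 3795, 3989 and 5211 UMIs, and those with 6 genes 17487.5, 15598, 31301.5 and 35894 UMIs. Their median mitochondrial shares were 5.02%, 6.03%, 60.3% and 19.5% with 2 genes and 8.53%, 4.44%, 6.4% and 6.67% with 6 genes (2 cells in D-CAN), so that Pdgfrb-TK/GCV ran the other way. At 2000 UMIs a gastric-type cell showed a median of 1016.5, 996, 503 and 965.5 genes, against 1095, 1080, 1125 and 1056. Cells with at least 3 of 20 cell cycle genes at 2000 UMIs made up 19.7%, 10.3%, 17.5% and 10.2%, against 20%, 13.3%, 18.8% and 13.5%. The last 3 measures had the same exact permutation p of 0.13 (n = 4), and their part in the differences between genes was not tested.

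Genes outside the rule were compared on counts summed per library and class, with library in the model (edgeR quasi-likelihood test, Benjamini-Hochberg adjustment). Of 15217 genes tested, 1133 (7.45%) were higher and 1290 (8.48%) lower in gastric-type than in other tumor cells at an adjusted p under 0.05, and without D-CAN 1500 and 1558. With library out of the model 1 gene was called higher and 0 lower (2349 at an unadjusted p under 0.05). Leaving out Pdgfrb-TK/GCV brought the counts to 726 and 754. Because the cells were chosen from these same counts, genes that travel with the 6 had to differ, and the calls describe the cells without being independent evidence for the class. The median log2 fold change of all genes was -0.05.

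Sulfotransferases and trefoil and galectin genes of gut epithelium were among the genes most raised beside the rule. Among genes called, of at least 50 CPM and in the same direction in 4 of 4 libraries, the 15 largest rises lay between 1.66 and 3.74 on the log2 scale. Sult1d1, a cytosolic sulfotransferase, stood at 34.4, 68.5, 49.8 and 152 CPM in gastric-type cells and 4.57, 27.4, 6.22 and 15.4 CPM in other tumor cells, a log2 fold change of 2.71 (SE 0.28). Its levels in the classes did not overlap. Mal, a proteolipid of apical transport, had 244, 321, 121 and 291 CPM against 53.9, 135, 29.1 and 53.2 CPM (2.17, SE 0.17). Only the D-CAN value of Mal lay below the highest value of the other tumor cells. Bcas1, a membrane-associated protein, had 101, 153, 64.0 and 53.6 CPM against 17.4, 62.8, 16.6 and 8.21 CPM (2.30, SE 0.20). Phgr1, a small protein of gut epithelium, had 261, 313, 114 and 379 CPM against 42.7, 152, 50 and 84.4 CPM (2.02, SE 0.20). The trefoil peptide Tff2, a neighbor of Tff1 on chromosome 17 that mucous cells of the stomach secrete, had 1060.2, 1170.5, 789.8 and 1283 CPM against 263, 628, 437 and 266 CPM (1.74, SE 0.19), with no overlap.

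Of the other raised genes, Gsta1 (1.79), a glutathione transferase, Sult1c2 (1.75), a second sulfotransferase, Ces2g (1.66), a carboxylesterase, and Ldhd (1.90), the D-lactate dehydrogenase, are enzymes. Gjb1 (1.75) is a gap junction connexin, Fxyd3 (1.75) a regulator of the sodium pump, Lgals4 (1.71) a galectin of gut epithelium and Ms4a8a (1.88) a membrane protein, and Gm3336 reached 2.37. Stmn2, a tubulin-binding protein best known from neurons, headed the list at 3.74 (SE 0.84) and was highest in D-CAN, the 1 library in which it passed 50 CPM. Its levels were 15.4, 2.87, 196 and 0.327 CPM against 1.93, 0.930, 1.23 and 0.18 CPM. Without D-CAN its log2 fold change was 2.36, and on cells thinned before the rule it was 0.39.

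**Figure D4:**
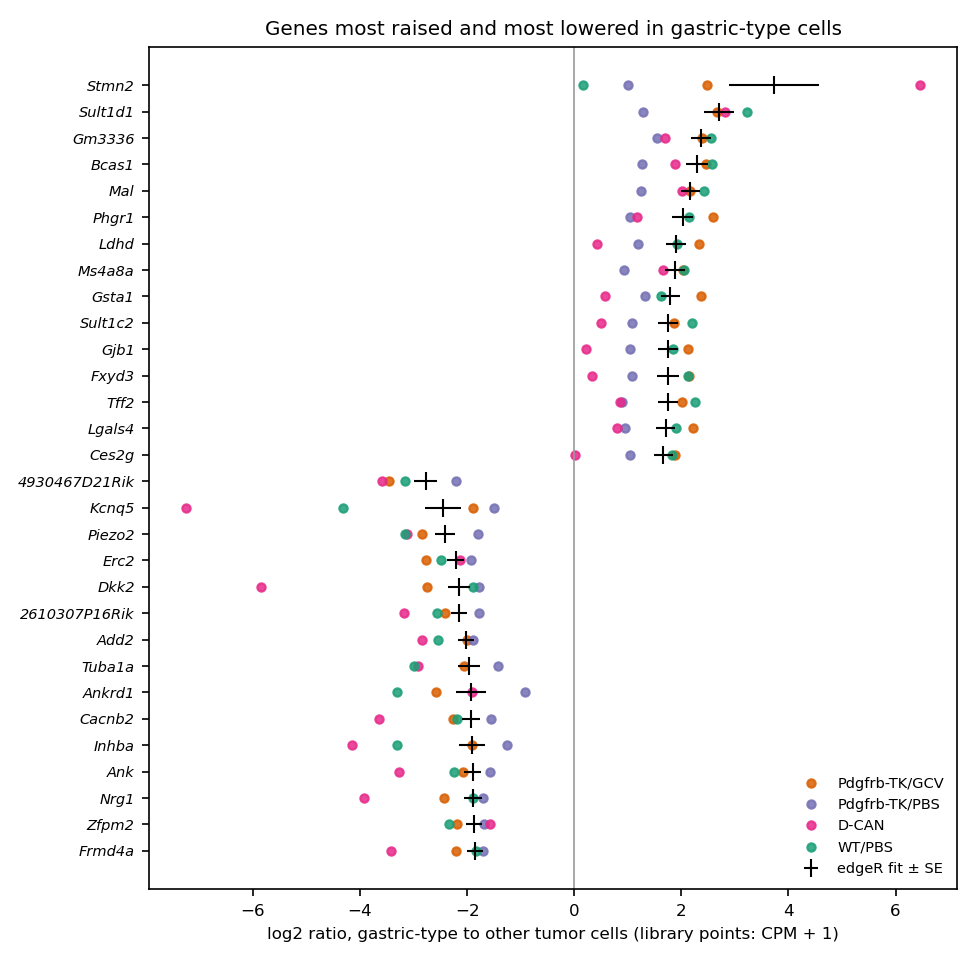
The 15 genes most raised and 15 most lowered in gastric-type cells, with the edgeR log2 fold change and its SE (black) and the log2 ratio in each library with 1 CPM added (colored points; x axis, log2). All library points lie on 1 side of 0 for each gene, those of Pdgfrb-TK/PBS lie nearest to 0 for 20 of the 30 genes, and the Stmn2 point of D-CAN lies far out, at 6.46.

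The 15 largest falls, between -2.77 and -1.85, held channels, synaptic and cytoskeletal genes and growth factors. Piezo2, a mechanically gated channel, stood at 39.8, 30.9, 35.6 and 11.8 CPM against 293, 110.0, 316 and 113 CPM (-2.42, SE 0.19), with no overlap between the classes. Inhba, which encodes the subunit of activin A, had 70.1, 39.6, 7.11 and 6.21 CPM against 268, 95.9, 143 and 70.1 CPM (-1.90, SE 0.24). Erc2, a scaffold of synaptic active zones, had 19.0, 13.9, 21.3 and 7.84 CPM against 135, 55.7, 97.5 and 48.4 CPM (-2.22, SE 0.17). Each was lower in 4 of 4 libraries. The others were Kcnq5 (-2.45), a potassium channel, Cacnb2 (-1.93), a calcium channel subunit, Dkk2 (-2.15), a modulator of Wnt signaling, Nrg1 (-1.89), a ligand of ErbB receptors, and Ankrd1 (-1.93), a known YAP target. They also included Add2 (-2.02) and Tuba1a (-1.96) of the cytoskeleton, Ank (-1.89), a pyrophosphate transporter, Zfpm2 (-1.87), a cofactor of GATA factors, Frmd4a (-1.85), 4930467D21Rik (-2.77) and 2610307P16Rik (-2.15).

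Gastric pit genes stood higher as a group. Of 16 such genes outside the rule, 13 had enough counts to be tested, and 13 of the 13 were called higher, with a median log2 fold change of 1.66. Without D-CAN, and with at least 3 of the 6 genes, the count was again 13 of 13, without Pdgfrb-TK/GCV it was 11. The most abundant were Tff2, Dmbt1, a scavenger receptor secreted by mucosae (973, 927, 462 and 898 CPM against 326, 656, 459.6 and 254 CPM; 1.24, SE 0.20), Ctse, the gastric protease cathepsin E (1.08, SE 0.12), and Muc1, a membrane mucin (1.26, SE 0.15). Psca, a surface antigen of pit cells, and Cldn18, the tight junction claudin of the stomach, were picked out after their values were seen. Psca had 5.35, 49.0, 7.11 and 13.7 CPM against 0.488, 7.93, 0.275 and 1.27 CPM (3.28, SE 0.28), and Cldn18 40.4, 57.8, 21.3 and 16.7 CPM against 7.07, 16.3, 8.62 and 2.02 CPM (2.46, SE 0.21). The gastrokine Gkn3, whose promoter is shown above, was far lower than its neighbors, at 8.91, 4.56, 0 and 3.59 CPM against 0.238, 0.946, 0.203 and 0.698 CPM (3.28, SE 0.58).

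Genes of other stomach cells went both ways. Of 10 tested mucous neck and pyloric gland genes, 2 were higher (Tff2, which is on both lists, and Bhlha15, at no more than 2.54 CPM) and 2 lower, Cd44 (-0.56, SE 0.11) and Glipr1 (-0.76, SE 0.16), with a median of -0.34. Without D-CAN 3 were higher and 3 lower, and without Pdgfrb-TK/PBS 1 and 3. The gland mucin Muc6, on chromosome 7 near Muc5ac, was at 0, 0, 0 and 1.63 CPM. Clu, the most abundant gene of that list, stood at 7523, 6569, 3903 and 4340.0 CPM against 8923, 7889, 8319 and 5632 CPM (-0.27, SE 0.12). Of markers of parietal, chief, endocrine and tuft cells, 4 could be tested and 1 was higher, the actin-binding Avil (1.11, SE 0.13), with 0 lower and a median of 0.80. This list summed to 119, 122, 60.5 and 58.1 CPM against 50.3, 79.2, 38.4 and 35.5 CPM, of which Avil held 113, 117, 53.4 and 49.3 CPM in gastric-type cells. The endocrine genes Chga and Sst were listed at 0 in gastric-type cells of all 4 libraries.

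Intestinal genes were mostly higher. Of 8 tested, 6 were higher and 1, the cadherin Cdh17, lower (-0.49, SE 0.13), with a median of 1.12. Tff3, the intestinal trefoil peptide next to Tff1 and Tff2 on chromosome 17, had 135, 248, 7.11 and 477 CPM against 12.7, 41.0, 8.95 and 26.0 CPM (3.39, SE 0.29), and was not raised in D-CAN. Lgals4, Krt20 (0.80, SE 0.11), a keratin of gut surface cells, and Fabp1 (1.44, SE 0.26), a fatty acid carrier, were the other abundant members. Cdx1 was listed at 0 in gastric-type cells and the goblet cell mucin Muc2 reached no more than 1.78 CPM.

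Genes that make and secrete mucins were mostly called higher. Of 19 tested, 13 were higher, 1 lower (Kdelr3, -0.83, SE 0.19) and 5 not called, with a median of 0.74. In D-CAN 8 of the 23 listed genes stood higher in gastric-type than in other tumor cells, and 8 were at 0 in gastric-type cells. With at least 3 of the 6 rule genes asked for, 16 were higher and 1 lower. The count was 7 and 1 with Tff1 left out of the rule and 8 and 1 without Pdgfrb-TK/GCV or without WT/PBS. The abundant members of this list were Galnt7, which starts O-glycans (208, 199, 125 and 78.7 CPM against 92.9, 146, 88.0 and 46.0 CPM; 0.95, SE 0.12), Gcnt3, which branches them (1.51, SE 0.15), C1galt1, which extends them (0.52, SE 0.12), and Qsox1, an oxidase that forms disulfides (0.74, SE 0.13). Agr2, a disulfide isomerase of mucous cells, named after its values were seen, had 36.2, 19.4, 0 and 18.0 CPM against 3.87, 7.52, 0.167 and 3.72 CPM (2.42, SE 0.30). Among mucins beside Muc5ac on chromosome 7, Muc5b had 16.0, 14.2, 0 and 3.59 CPM against 2.71, 6.34, 3.11 and 1.34 CPM (1.73, SE 0.36).

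Most transcription factors of stomach and foregut were not called. Of 19 tested, 7 were higher, 1 lower and 11 not called, with a median of 0.18. Without Pdgfrb-TK/GCV 3 were higher and 1 lower. Klf4, a factor of surface epithelia, had 119, 150.1, 224 and 178 CPM against 59.8, 65.2, 32.4 and 81.6 CPM (1.61, SE 0.22), with no overlap. Elf3 (1.05, SE 0.13), an epithelial ETS factor, and Foxq1 (0.61, SE 0.11), a regulator of Muc5ac in the stomach, were also higher, while Klf5 differed by 0.11 (SE 0.15) without a call. The foregut factor Sox2 was the 1 lower gene, at 44.0, 19.6, 0 and 12.4 CPM against 65.2, 31.8, 37.7 and 46.7 CPM (-0.89, SE 0.22). Of 19 genes of sphingolipid synthesis, the pathway Sptssb belongs to, 3 were higher and 0 lower. They were Sptlc2, the catalytic partner of Sptssb (0.40, SE 0.11), and the desaturases Degs1 (0.42, SE 0.12) and Degs2 (2.38, SE 0.22). Without Pdgfrb-TK/GCV or without WT/PBS 1 was higher and 0 lower, and without Pdgfrb-TK/PBS 1 and 1.

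**Figure D5:**
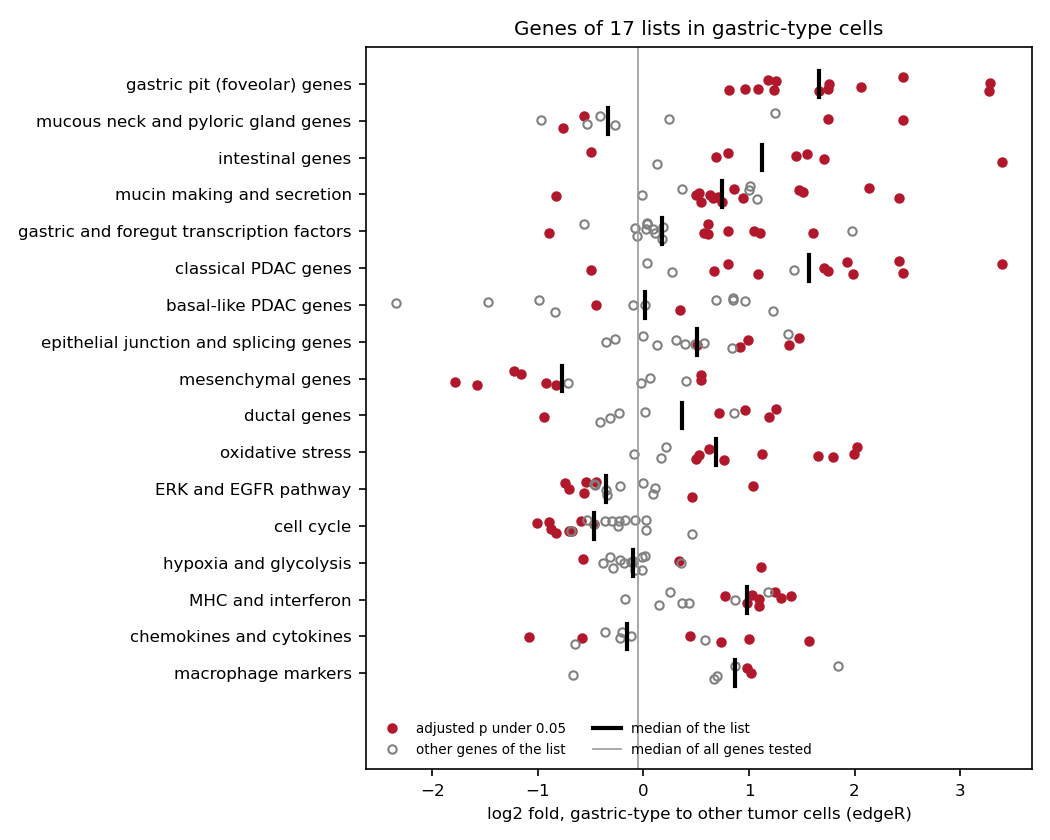
Log2 fold change of each tested gene of 17 lists in gastric-type against other tumor cells (x axis, edgeR), with filled points for adjusted p under 0.05, a black bar for the median of the list and a gray line for the median of all genes tested, -0.05. All 13 tested pit genes lie to the right, with their median at 1.66, and the median of the mesenchymal genes lies at -0.77.

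Against the PDAC subtypes, 10 of 14 tested classical genes were higher and 1 lower, with a median of 1.57, and the list shares, among others, Tff2, Tff3, Lgals4, Ctse, Agr2, Cldn18, Krt20 and Cdh17 with those above. Tspan8, a tetraspanin, was its other abundant member (0.66, SE 0.10). Of 13 basal-like genes 1 was higher (Anxa8, 0.34, SE 0.11) and 1 lower (Areg, -0.45, SE 0.13), with a median of 0.02. These shares were near those over all genes, 7.45% higher and 8.48% lower. The basal-like counts were 2 and 3 without D-CAN, 3 and 2 with at least 3 of the 6 genes, and 3 and 4 of 12 with cells thinned before the rule, where the median was -0.67. Of 12 mesenchymal genes, 6 were lower and 2 higher, with a median of -0.77. Fibronectin, Fn1, had 476, 176, 381 and 136 CPM against 1149, 422, 697 and 558 CPM (-1.16, SE 0.16), and N-cadherin, Cdh2, named after its values were seen, was at -1.78 (SE 0.23). Sparc, a matrix glycoprotein, was among the higher ones (0.54, SE 0.14; -0.66 with at least 3 of the 6 genes, -0.35 with Tff1 left out, -0.010 thinned), and 0 genes of the list were called higher with at least 3 of the 6 genes. Vim, the most abundant, differed by 0.06 (SE 0.10) without a call. Of 15 junction and splicing genes, 5 were higher and 0 lower, with a median of 0.51, among them the plaque proteins Jup (0.51, SE 0.13) and Dsp (0.92, SE 0.15) and the tight junction protein Tjp3 (1.47, SE 0.20).

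Ductal and acinar genes went both ways. Of 10 ductal genes, 4 were higher and 1, the secreted phosphoprotein Spp1, lower at 2167, 1514, 1722 and 1006 CPM against 4453, 2553, 4814 and 2642 CPM (-0.94, SE 0.11), with no overlap. Of 5 acinar genes tested, the elastase Cela1 was higher (1.02, SE 0.16) and the trypsinogen Try5 lower (-1.12, SE 0.37). Glutathione and oxidative stress genes were mostly higher, 9 of 12 with 0 lower and a median of 0.69, and 6 without Pdgfrb-TK/GCV. Gsta4 led them with 1051, 1929, 793 and 993 CPM against 357, 1128, 701 and 487 CPM (1.12, SE 0.14), beside Gsta1 and Gclc (0.49, SE 0.14), which makes glutathione. Cell cycle genes were lower in 8 of 20 and higher in 0, with a median of -0.47. The ubiquitin-conjugating Ube2c was the most abundant of the 8, at 73.7, 67.8, 35.6 and 56.8 CPM against 153, 90.2, 166 and 97.8 CPM (-0.68, SE 0.16). With cells thinned before the rule the count was 1 lower and 1 higher, with Ube2c at 0.060, and without Pdgfrb-TK/GCV or without WT/PBS 5 were lower.

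Without D-CAN, the genes higher and lower numbered 6 and 1 in the intestinal list, 15 and 1 in mucin making, 7 and 1 in transcription factors, 3 and 0 in sphingolipid synthesis and 10 and 1 in classical genes. They numbered 2 and 6 in mesenchymal, 6 and 0 in junction, 4 and 2 in ductal, 1 and 1 in acinar, 9 and 0 in oxidative stress and 1 and 7 in cell cycle genes.

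Markers of host cells were given by the same fit. Of 7 macrophage markers 2 were higher, Lyz2 (0.98, SE 0.27) and C1qa (1.02, SE 0.29), and with at least 3 of the 6 genes 0 were higher and 1 lower, with Lyz2 at -0.15 and C1qa at -0.12. Their sums were 333, 93.1, 46.2 and 21.6 CPM against 138, 63.4, 35.7 and 41.7 CPM in other tumor cells, with Lyz2 the most abundant in Pdgfrb-TK/GCV at 193 CPM. Of 6 fibroblast markers 1 was higher, Col1a1 (0.90, SE 0.24), and their sums were 102, 216, 1124 and 230 CPM against 64.1, 102, 105 and 383 CPM. Of 5 mesothelial markers 1 was higher, Msln, which tumor cells also express (0.63, SE 0.12). Of 5 endothelial, 4 neutrophil and 1 lymphocyte markers tested, 0 were called. Without Pdgfrb-TK/GCV 0 macrophage markers were higher, and without D-CAN or without WT/PBS 4. Without 1 library the count of higher fibroblast markers reached 2 (without either Pdgfrb-TK library) and 3 (without WT/PBS), and that of mesothelial markers 3 (without Pdgfrb-TK/PBS) and 2 (without WT/PBS). In cells with at least 3 of the 6 genes 13 pit, 16 mucin and 9 oxidative stress genes were higher. Macrophage markers stood at 109 and 131 CPM in Pdgfrb-TK/PBS cells with 3 and 5 genes. The part of host cell RNA in the gene differences was not tested.

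The gastric-type cells were closest to squamous-like cells and farthest from Hmga2 Klhl1 cells by the number of genes called. Against squamous-like cells (5092), 900 of 14586 genes (6.17%) were higher and 826 (5.66%) lower. Against Hmga2 Klhl1 cells (4121) the counts were 3625 (24.9%) and 3407 (23.4%), and against Pkhd1 Tenm1 cells (3731) 2235 (15.3%) and 1866 (12.8%). Without Pdgfrb-TK/GCV the squamous-like counts were 358 and 244 and the Pkhd1 Tenm1 counts 1113 and 848. Without D-CAN the counts were 797 and 908, 3466 and 3456, and 2334 and 2201 in the order above. The comparisons share the gastric-type cells, and the classes share the same libraries and rule. Of the 15 raised genes, 15 were higher than in squamous-like, 15 than in Hmga2 Klhl1 and 13 than in Pkhd1 Tenm1 cells. Of the 15 lowered genes, 13, 15 and 4 were lower. Both sets were picked against all other tumor cells, a pool that holds these classes, which largely fixes these tallies. Piezo2, for one, averaged 595 CPM in Hmga2 Klhl1, 68.2 CPM in squamous-like, 28.7 CPM in Pkhd1 Tenm1 and 29.5 CPM in gastric-type cells. Inhba was higher than in Pkhd1 Tenm1 cells (1.28, SE 0.32).

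Of the raised genes, Tff2 and Sult1c2 were not called against Pkhd1 Tenm1 cells. Tff2 averaged 1076 CPM over libraries in gastric-type, 1002 CPM in Pkhd1 Tenm1, 335 CPM in squamous-like and 26.6 CPM in Hmga2 Klhl1 cells, and between the first and second the log2 fold change was 0.50 (SE 0.34) without a call. Mal was higher than in each class, with 244, 91.5, 89.3 and 5.15 CPM. Of 13 pit genes, 7 were higher than in Pkhd1 Tenm1 cells (median 0.69), 11 than in squamous-like (1.63) and 13 than in Hmga2 Klhl1 cells (4.75). Of 12 oxidative stress genes, 8, 7 and 10 were higher than in these classes in the same order. Of 12 mesenchymal genes, 7 were lower, 1 higher and 4 not called against Hmga2 Klhl1 cells (median -1.58). Against Pkhd1 Tenm1 cells 5 were higher, 1 lower and 6 not called (median 0.64). Of 15 ERK and EGFR pathway genes, 10 were lower and 2 higher than in Hmga2 Klhl1 cells, and 6 higher, 1 lower and 8 not called against Pkhd1 Tenm1 cells (median 0.28). Host markers moved in these comparisons too. Of 7 macrophage markers, 6 were higher than in Pkhd1 Tenm1 (median 1.23), 4 than in squamous-like (1.24) and 6 than in Hmga2 Klhl1 cells (1.79, 1 lower). Of 6 fibroblast markers, 3, 1 and 4 were higher in the same order, with medians of 1.55, 0.89 and 1.64. Their part in the class differences was not tested.

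Within gastric-type cells, the myeloid genes Chil3, Wfdc17 and Ccl6 were among the genes furthest above Pdgfrb-TK/PBS in Pdgfrb-TK/GCV, and Slit3 and Col3a1 the furthest below. Of 3181 genes with at least 100 UMIs in the pair and 50 CPM in the higher library, 61 (1.92%) were more than 2-fold higher in Pdgfrb-TK/GCV and 16 (0.503%) more than 2-fold lower, with no test. Among the highest were Chil3 (99.2 against 2.87 CPM, log2 ratio 4.69 with 1 CPM added), Wfdc17 (2.86), Ccl6 (2.56) and Srgn (2.47), all known from macrophages and other myeloid cells. The same ratios in other tumor cells were 3.88, 1.09, 1.72 and 1.55, and macrophage markers moved with them, as given above. With at least 3 of the 6 genes 32 genes were higher and 14 lower, and with Tff1 left out of the rule 39 and 111. In other tumor cells 57 of the 3181 genes were higher and 107 lower. Lowest were Slit3, a guidance ligand (7.13 against 62.2 CPM, -2.96), Col3a1, a collagen (-1.82), Ttr, a thyroxine carrier (113 against 348 CPM, -1.62), the rule gene Muc5ac (-1.54) and Anxa13, an annexin of gut epithelium (58.2 against 158 CPM, -1.42). In other tumor cells these were at -1.0, -0.70, -2.21, -2.01 and -1.81. Col3a1 is 1 of the 6 fibroblast markers, whose sum was 102 CPM in Pdgfrb-TK/GCV against 216 CPM in Pdgfrb-TK/PBS, and the part of fibroblast RNA was not tested.

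D-CAN could be compared with WT/PBS only with the reserve stated above. Of 3183 genes, 141 (4.43%) were more than 2-fold higher and 551 (17.3%) lower, around a median log2 ratio of -0.39. With mitochondrial genes out of the totals the counts were 227 and 350, with at least 3 of the 6 genes 381 and 381, and with cells thinned before the rule 329 and 146. In other tumor cells 107 of these genes were higher and 85 lower. Highest were the complement gene C3 (6.06), Dcn (5.27), the surface antigen Ly6a (3.77), the MHC class I gene H2-K1 (3.71) and the early response gene Fosb (3.59). In other tumor cells the ratios of H2-K1, Ly6a, C3 and Fosb were 3.39, 3.27, 2.32 and 0.38, while Dcn stood at -1.01. Lowest were Epcam, Tff3 (7.11 against 477 CPM, -5.88), Sprr1a (-5.21), a gene of the competing squamous-like list that the rule holds low in cells with 2 genes, Bmyc (-4.69) and Arf2 (-4.42).

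The PBS libraries differ in host genotype, Pdgfrb-TK against WT, as well as being separate captures, which cannot be told apart. Of 3304 genes, 117 (3.54%) were more than 2-fold higher in Pdgfrb-TK/PBS and 123 (3.72%) lower. Heat shock genes led the lower ones, with Hspa1a at 10.1 against 648 CPM (-5.86), Hspb1 at 32.3 against 850 CPM (-4.68), Hspa1b (-4.58) and Hsph1 (-3.19), beside the chemokine Ccl2 (-4.19). Other tumor cells differed alike, by -4.84, -4.44, -4.00, -2.63 and -4.53. Higher were Hnf1aos1 (2.67), which belongs to the Pkhd1 Tenm1 list, Slit3 (2.55, against -0.45 in other tumor cells), 9030622O22Rik (2.41), Gm35019 (2.28) and the villus protein Vil1 (50.2 against 10.8 CPM, 2.12).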

How the data were processed

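Counts of UMIs per gene and cell were deposited by the authors without normalization, 1 library per condition (Chromium 3' kit, Cell Ranger, mm10). The paper and the file headers name different versions of Cell Ranger (7.0.0 in the headers), and the submitters' processing notes name STAR 2.6. The protocol text of the labels describes nuclei of another tissue, so libraries were matched to conditions by title. The members and gene lists were chosen with earlier results of these data known.

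Counts were summed per library and class and tested with edgeR 4.0.16 (R 4.3.3; TMM, filterByExpr, glmQLFTest, library as covariate, Benjamini-Hochberg over all genes tested, rule genes left out). DESeq2 1.42.0 was an alternative. The scripts were tested on simulated data. CPM are counts per 1e6 UMIs of a class, mitochondrial UMIs included. Shares have exact Clopper-Pearson intervals at 95%, CPM have Poisson intervals and folds of shares conditional binomial ones, all exact, which cover counting error only. Between conditions, ratios are log2 with a pseudocount of 1 CPM, without a test.

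Named genes are the rule's, the 15 largest rises and falls called with at least 50 CPM and the same direction in 4 of 4 libraries, the 5 largest each way by condition, and the most abundant genes of each list. Genes called in small numbers, and others so marked, were named after their values were seen. Some genes that the rule names are not reported here. Alternatives changed the test, the filter, the block, the libraries, the thinning to 2000 UMIs, the minimum of rule genes or UMIs, the mitochondrial limit, the pseudocount and the control library. Leaving out Tff1 or mitochondrial genes was chosen after seeing the data. Doublets were kept. Pairs of libraries shared 26 to 42 cell barcodes.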

Additional observations from a re-analysis of the deposited data

Results flagged for a closer look

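The D-CAN and WT/PBS libraries list features for GFP and Tdtomato that were kept out of all totals. The feature GFPcds had 4 UMIs in the gastric-type cells of WT/PBS, in 4 cells (2.15%), above a count of 0 in a feature outside the main measurement. In the same library it was found in 2.14% of other tumor cells and 16.7% of Ptprc cells. In D-CAN, where GFPcds had 605 and Tdtomato 676 UMIs in all cells, both had 0 UMIs in the 40 gastric-type cells, and GFPcds was found in 0.658% of other tumor cells and 10.8% of Ptprc cells.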

How the results depend on the processing

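Pairing by library was part of the model. With no replicate block, counts of genes called higher and lower were 1 and 0 against other tumor cells, 31 and 24 against squamous-like, 2364 and 2024 against Hmga2 Klhl1 and 554 and 518 against Pkhd1 Tenm1 cells. With 1 library left out, they ranged from 726 to 1500 and from 754 to 1558 against other tumor cells, from 358 to 797 and from 244 to 908 against squamous-like, from 2676 to 3466 and from 2446 to 3456 against Hmga2 Klhl1, and from 1065 to 2334 and from 827 to 2201 against Pkhd1 Tenm1 cells. The lowest counts came without Pdgfrb-TK/GCV or Pdgfrb-TK/PBS. Without Pdgfrb-TK/PBS the squamous-like counts were 471 and 374, and without WT/PBS 494 and 257. DESeq2 called 817 genes lower than in other tumor cells, thinning before the rule gave 2049 higher and 2033 lower, and no filter on low counts gave 1335 lower than in squamous-like cells. The fold of shares for Pdgfrb-TK/GCV was 0.374 thinned, 0.209 with at least 3 genes, 0.155 without Tff1 and 0.658 with the other PBS control, and that for D-CAN 0.880, 0.0765, 0.197 at no more than 20% mitochondrial UMIs, 0.189 from 5000 UMIs and 0.136 with the other PBS control. The interval of the thinned D-CAN fold, 0.691 to 1.12, includes 1. Genes past 2-fold higher and lower in Pdgfrb-TK/GCV numbered, of 3181 genes unless given, 39 and 111 of 2841 without Tff1, 36 and 9 with 10 CPM added, 286 and 75 of 8672 with floors of 30 UMIs and 10 CPM, 181 and 106 of 3350 with the other PBS control, and 37 of 3253 (thinned) and 32 of 3131 (at least 3 genes) higher. For D-CAN, with 3183 genes in the report, they numbered 329 and 146 of 3466 thinned, 250 and 312 of 3265 at no more than 20% mitochondrial UMIs, 43 and 241 of 997 without Tff1, 476 and 1617 of 7971 with the lower floors, 227 and 350 of 3614 without mitochondrial genes, and 381 of 3248 (at least 3 genes) and 217 of 3352 (from 5000 UMIs) higher. Log2 fold changes that turned over were C1qa (-0.10 thinned, -0.12 with at least 3 genes), Lyz2 (-0.15 with at least 3 genes), Sparc (-0.010, -0.66 and, without Tff1, -0.35), H2-K1 (-0.025), Ndrg1 (-0.13) and Ube2c (0.060) thinned, and, without a call to begin with, Clu (0.079), Vim (-0.063, and -0.081 without Tff1) and Klf5 (-0.055 without Pdgfrb-TK/GCV to 0.25 without D-CAN). The cause was not tested. Differences in median depth, mitochondrial share, genes at 2000 UMIs and cycling share kept their sign without each library, at -8816 to -3229 UMIs, 3.82 to 17 points, -265.5 to -84.3 genes and -2.52 to -1.52 points. The 40 cells of D-CAN, with 281098 UMIs, limit all its values.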

Other observations

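Further gene groups were compared between gastric-type and other tumor cells, where 7.45% of all genes were higher and 8.48% lower. Of 15 tested MHC and interferon genes, 8 were higher in gastric-type than in other tumor cells and 0 lower, with a median log2 fold change of 0.98, with 5 higher with at least 3 of the 6 genes and 6 without D-CAN. H2-D1, an MHC class I gene, had 189, 169, 658 and 233 CPM against 111, 131, 529.5 and 137 CPM in library order (0.78, SE 0.11). H2-K1, another, had 85.5, 40.1, 864 and 65.0 CPM against 53.5, 27.0, 420.4 and 39.1 CPM (0.98, SE 0.12; -0.025 with cells thinned before the rule), and Cd74, the invariant chain of class II, had 39.8, 39.2, 263 and 33.0 CPM against 32.1, 18.9, 83.9 and 22.9 CPM (1.10, SE 0.19). The D-CAN library was the highest for these 3 genes in both classes of cells.

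The lists that follow are short, and their counts move with single libraries. Of 12 chemokine and cytokine genes, 4 were higher and 2 lower. The alarmin Il33 had 161, 98.0, 142 and 31.7 CPM against 79.4, 62.1, 118 and 33.0 CPM (0.73, SE 0.14), and Cxcl16, a membrane-bound chemokine, was at 0.44 (SE 0.14). The neutrophil attractant Cxcl1 (-0.58, SE 0.18) and the growth factor Csf2 (-1.08, SE 0.32) were lower, 1 of them without WT/PBS. Of 9 secreted defence genes 2 were higher, Lyz2, which is also a macrophage marker, and Pigr, the carrier of secreted IgA (14.3, 0.845, 0 and 3.92 CPM against 1.66, 0.457, 2.07 and 0.249 CPM, 2.66, SE 0.59), with 1 higher without Pdgfrb-TK/GCV and 3 without WT/PBS. Of 15 genes of the ERK and EGFR pathway 2 were higher, the receptors Erbb3 (1.04, SE 0.16) and Erbb2 (0.46, SE 0.13), and 5 lower, among them the ligands Hbegf (-0.70, SE 0.13) and Areg, with 3 lower without Pdgfrb-TK/GCV and 7 without D-CAN. Of 15 hypoxia and glycolysis genes 2 were higher, the carbonic anhydrase Car9 (1.12, SE 0.15) and Ndrg1 (0.34, SE 0.10; -0.13 thinned), and 1 lower, the collagen hydroxylase P4ha1 (-0.58, SE 0.15), shares near those over all genes. Thinned, 1 was higher and 9 lower, and without D-CAN 2 and 2, without Pdgfrb-TK/GCV 1 and 3, without Pdgfrb-TK/PBS 1 and 1 and without WT/PBS 1 and 0. Of 6 Wnt targets 1 was lower, the ubiquitin ligase Znrf3 (-0.66, SE 0.17), and 0 without Pdgfrb-TK/PBS, and of 12 dissociation stress genes 1 was higher, the early response gene Fos (0.51, SE 0.14), with 0 without Pdgfrb-TK/GCV and 2 without Pdgfrb-TK/PBS or without WT/PBS, while 0 were higher and 3 lower with at least 3 of the 6 genes. Of 4 red blood cell genes 0 had counts enough for a test against other tumor cells, with hemoglobins at no more than 23.5 CPM. Against Hmga2 Klhl1 cells 4 of 4 were lower (median -1.63), calls that rest on Pdgfrb-TK/PBS. There the list summed to 39.6 CPM in gastric-type and 97.1 CPM in other tumor cells. In the other libraries it summed to at most 0.594 CPM in these classes.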
